A study of Rattus norvegicus with 35 samples.

Results

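The natriuretic peptides and the contractile genes of the fetal hypertrophy programme were followed in cultured neonatal rat heart cells after 3 stressors. All probe-sets whose single gene symbol in the array annotation was Nppa, Nppb, Myh6, Myh7 or Acta1 were taken, which gave 5 of the 4736 genes and 11 of the 8740 probe-sets tested (4 for Nppa, 1 for Nppb, 3 for Myh6, 2 for Myh7 and 1 for Acta1). 1 further probe-set, X15939_r_at, is annotated to both Myh7 and Myh6 and was left out. Expression was measured on 35 Affymetrix rat GeneChip arrays in 2 cell populations from neonatal rat ventricles, CM-enriched preparations (CM, cardiac myocytes) and cultures of fibroblasts (FB). The stressors were 10 J/m2 of UVC (UV) or 8.5 Gy of X-rays (IR), each with RNA taken 24 h later and each set against sham-irradiated cells, and 24 h of cyclic mechanical stretch (MS) on Flexcell plates coated with collagen I, set against unstretched cells on the same plates. There were 3 arrays for each population and condition, except for the sham-irradiated CM controls of the UV experiments, of which there were 2. The populations were separated by pre-plating, so that CM-enriched preparations still hold non-myocytes and cultures of fibroblasts can hold myocytes. After UV and IR the CM-enriched cultures were also separated by centrifugal elutriation into CM-enriched fractions before RNA was taken, whereas after MS they were used without it. Fibroblasts were also subcultured, in another serum and for longer, before the stress, and the controls of the populations differ in this too.

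Nppa and Nppb encode the precursors of the atrial and B-type natriuretic peptides, hormones that heart muscle releases when it is stretched and that act on guanylate cyclase receptors to lower blood pressure and blood volume. Both genes are active in the fetal ventricle, decline after birth and are switched on again in hypertrophy and failure. In the rodent ventricle the same programme raises Myh7, the slow beta-myosin heavy chain of fetal muscle, at the expense of Myh6, the fast alpha-myosin heavy chain of the adult, and raises Acta1, the skeletal alpha-actin, beside the cardiac alpha-actin.

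Nppa and Nppb are neighbours on rat chromosome 5, with start sites 12176 bases apart in RefSeq's annotation of GRCr8, while Myh6 and Myh7 lie on chromosome 15 and Acta1 on chromosome 19. Promoter sequences from RefSeq matched 5 of 5 genes, and the 250 bases before the start are shown for the pair of neighbours, whose values differed after UV, and for Acta1, which was lower together with Nppb. Capitals mark every match, on either strand, to 4 motifs. The first is GATAA, the core of sites of GATA factors. The second is CATTCC, the muscle CAT element. The others are TATAAA, the usual letters of a TATA box, and the CArG box, bound by serum response factor. The strands are plus for Nppa (chr5:163711934-163712183) and Nppb (chr5:163699758-163700007) and minus for Acta1 (chr19:68784195-68784444).
Nppa: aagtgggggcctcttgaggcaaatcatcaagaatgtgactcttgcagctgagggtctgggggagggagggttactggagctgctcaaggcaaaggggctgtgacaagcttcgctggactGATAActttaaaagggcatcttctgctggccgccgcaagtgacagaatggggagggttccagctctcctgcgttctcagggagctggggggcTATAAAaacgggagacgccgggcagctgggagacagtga
Nppb: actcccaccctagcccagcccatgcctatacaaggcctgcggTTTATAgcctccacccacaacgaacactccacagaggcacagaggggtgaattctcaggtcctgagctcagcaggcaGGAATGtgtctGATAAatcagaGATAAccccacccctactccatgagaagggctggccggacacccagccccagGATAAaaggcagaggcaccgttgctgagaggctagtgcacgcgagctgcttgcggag
Acta1: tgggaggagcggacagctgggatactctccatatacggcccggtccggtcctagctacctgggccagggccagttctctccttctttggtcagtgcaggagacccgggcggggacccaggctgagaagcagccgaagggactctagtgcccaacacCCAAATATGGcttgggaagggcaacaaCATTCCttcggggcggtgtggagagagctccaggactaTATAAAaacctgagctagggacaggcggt
GATAA stood once in the Nppa window, 131 bases before the start, 3 times in that of Nppb and not in that of Acta1. CATTCC stood once each in the windows of Nppb and Acta1, and the CArG box only in that of Acta1, 94 bases before the start. In the windows not shown, that of Myh6 also held CATTCC, 23 bases before the start, and that of Myh7 held none of the 4 motifs. Of all 33469 rat promoters of this length, 23.5% held the GATA core and 12.1% the muscle CAT element. TATAAA, on either strand and at any position, stood in 12.9% and a CArG box in 1.5%. It began 39 bases before the start in Nppa and 29 in Acta1. The match in Nppb is on the other strand, 208 bases before the start, and is not placed like a TATA box. These matches describe the letters of the windows and were not tested against the arrays.

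Each value below is a normalized intensity: the deposited intensity of a probe-set, scaled to a common 75th percentile, raised to a floor of 6.9 and quantile normalized. None of the 11 probe-sets was at the floor on any array. Changes are log2 differences of treated minus control within numbered experiments, from limma, and a change was called at a Benjamini-Hochberg adjusted p of 0.05 over all 8740 probe-sets. UV-treated CM array 3 lacks a control with the same number, so it is shown but does not enter the fitted change. Markers were higher in CM controls over FB controls for 6 (UV), 9 (IR) and 9 (MS) of 9 myocyte genes. Of all probe-sets 11.7%, 12.7% and 10.7% were higher there. Of 10 fibroblast markers, 9 (UV), 8 (IR) and 2 (MS) were lower in CM controls and 1 (UV), 1 (IR) and 3 (MS) were higher. No myocyte marker was at the floor throughout the cultures of fibroblasts, whose summed myocyte marker level in the controls was 14400 to 16400 (UV), 4540 to 11700 (IR) and 2710 to 16800 (MS). Since RNA came from mixed fractions and cultures, not from single cells, fewer cells of a type and less RNA per cell cannot be told apart.

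After UV, Nppb and Acta1 were lower in both populations, the myosin heavy chains were lower in cultures of fibroblasts, and no Nppa probe-set passed the test. In CM-enriched fractions 2 of the 11 probe-sets were called lower and 0 higher, where 8.16% of all probe-sets were called lower, 8.62% higher and 16.8% in either direction. In cultures of fibroblasts 7 were called lower and 0 higher, where 11.2% of all were called lower, 11.7% higher and 22.9% in either direction. The median change of the 11 was -0.27 in CM and -1.10 in FB, against 0 for all probe-sets in both. Treated and control arrays did not overlap for 7 of the 11 in CM (31.9% of all probe-sets) and for 7 in FB (29.8%). After IR and MS limma called 0 of the 11 in either population. The probe-sets with an unadjusted p below 0.05 numbered 2 (CM) and 1 (FB) after IR and 0 in both populations after MS. Over all probe-sets, 0.732% (CM) and 0.0801% (FB) were called after IR and 0% in both populations after MS. Every call after UV rests on the numbered experiments as a block: without it, 0 of the 11 passed in CM and 0 in FB.

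**Figure D1:**
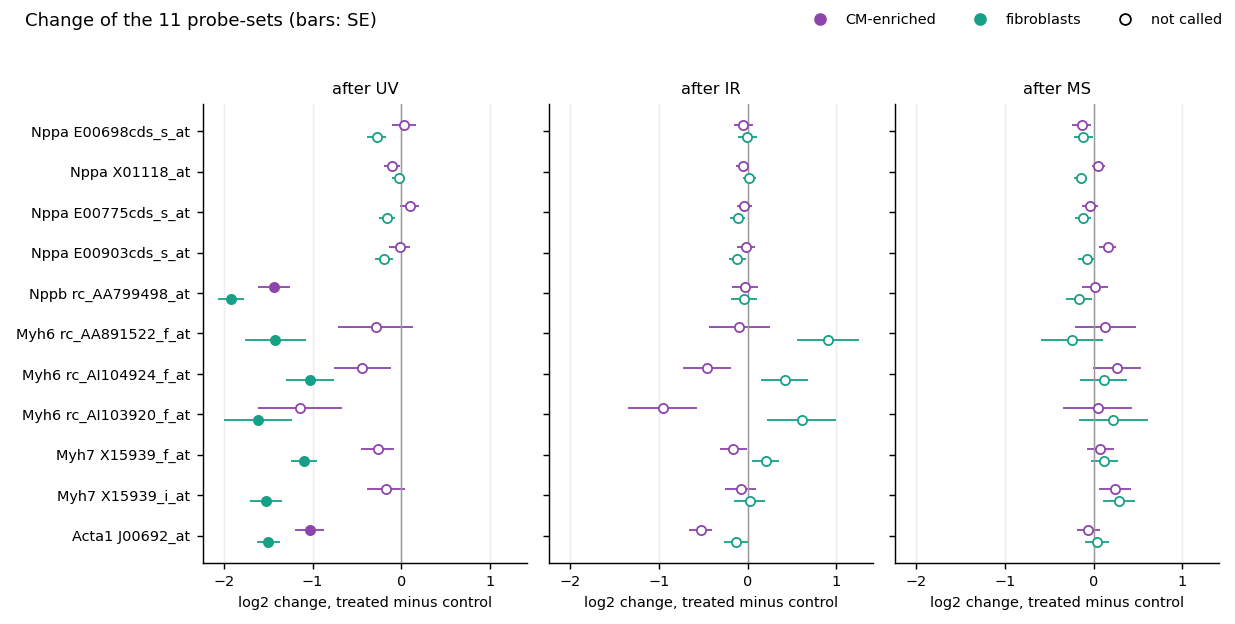
Log2 change (treated minus control, horizontal axis) of the 11 probe-sets after UV, IR and MS, in CM-enriched preparations and in cultures of fibroblasts, with bars of 1 SE. Filled points passed the threshold: 2 in CM and 7 in FB after UV, and 0 after IR or MS.

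Nppa intensities showed no called change in any of the 6 comparisons. Probe-set E00698cds_s_at read 6969, 7658 and 8385 on UV-treated CM arrays, against 6607 and 7762 on the controls. In cultures of fibroblasts it read 3272, 1862 and 3321 after UV, against 3253, 2831 and 3907 in controls. The groups overlapped in both populations, and the second UV-treated fibroblast array was the lowest. The change was 0.03 (SE 0.133, 95% interval -0.26 to 0.32) in CM and -0.28 (SE 0.108, -0.51 to -0.04, adjusted p = 0.0936) in FB. Leaving out replicate 1 gave -0.42 with an adjusted p of 0.0457 in FB, and over all alternatives that p ran up to 0.864. The other 3 Nppa probe-sets changed by -0.11 to 0.09 in CM and by -0.20 to -0.03 in FB.

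After IR the same Nppa probe-set read 6562, 6770 and 6969 in treated CM, against 6562, 6969 and 7472 in controls. After MS it read 3484, 2693 and 2576 in stretched CM, against 3238, 3282 and 3021 in controls. Stretched arrays lay on both sides of the control arrays, and the changes were -0.05 (-0.28 to 0.19) after IR and -0.14 (-0.37 to 0.10) after MS. In cultures of fibroblasts the values were 3109, 1269 and 2465 after IR, against 2916, 1295 and 2592 in controls, and 1513, 3689 and 790.1 after MS, against 1423, 3926 and 1009 in controls. The experiments of a group differed far more than treated and control cells of the same experiment, the changes being 0.00 (-0.24 to 0.23) and -0.12 (-0.35 to 0.12).

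Nppa lay near the top of the intensity scale in the CM-enriched fractions of the UV and IR experiments, and lower in the CM-enriched cultures of the MS experiments, where E00698cds_s_at ranked between 162 and 242. E00775cds_s_at was the brightest probe-set of all on its highest array, and E00698cds_s_at ranked between 3 and 23 on the CM arrays of the UV experiments. Quantile normalization gives every array the same value at a given rank, so the values move in steps there. E00903cds_s_at, for example, read 7551 on all 3 UV-treated CM arrays, against 7658 on both controls. E00775cds_s_at read 8756, 8756 and 9491 on UV-treated CM arrays, against 8026 and 8385 on controls, without overlap and with a change of 0.09 (-0.14 to 0.33). With scaling alone, without quantile normalization, that change was -0.13. The 4 probe-sets correlated with each other at Pearson's r of 0.98 to 0.99 over the 35 arrays, a description over arrays that share populations and experiments.

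Nppb was lower after UV in both populations, by 2.71-fold in CM-enriched fractions and 3.8-fold in cultures of fibroblasts. Probe-set rc_AA799498_at read 1539, 2559 and 2148 on UV-treated CM arrays, against 5626 and 5140 on controls. In cultures of fibroblasts it read 264.2, 202.6 and 332.0 after UV, against 896.8, 913.8 and 1187 in controls. All treated arrays lay below all controls in each population. The log2 change was -1.44 (SE 0.179, adjusted p = 2e-04) in CM, with -1.87 and -1.01 in the 2 pairs, and -1.92 (SE 0.146, adjusted p = 1.48e-06) in FB, with -1.76, -2.17 and -1.84 in the 3 pairs. The change in CM minus that in FB was 0.49 (-0.02 to 0.99, adjusted p = 0.27), which did not pass. Without the block the adjusted p was 0.318 in CM and 0.0691 in FB, the highest of the alternatives in FB. In CM the highest was 0.344 (SE 0.323), with only the CM arrays of the UV experiments in the fit.

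After the other stressors Nppb treated and control arrays overlapped. In CM after IR it read 3455, 5192 and 5437, against 3756, 5906 and 4618 in controls, a change of -0.02 (-0.34 to 0.29). In CM after MS it read 1260, 1258 and 1328, against 1357, 1115 and 1338 in controls, a change of 0.02 (-0.30 to 0.34). These intervals do not reach the size of the change measured in CM after UV. In cultures of fibroblasts it read 1160, 223.1 and 619.4 after IR, against 1033, 231.6 and 726.1 in controls (-0.04, -0.36 to 0.28). After MS it read 421.3, 2179 and 211.7, against 500.1, 2111 and 260.0 in controls (-0.17, -0.48 to 0.15). The second stretch experiment stood apart in fibroblasts, both stretched and unstretched.

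**Figure D2:**
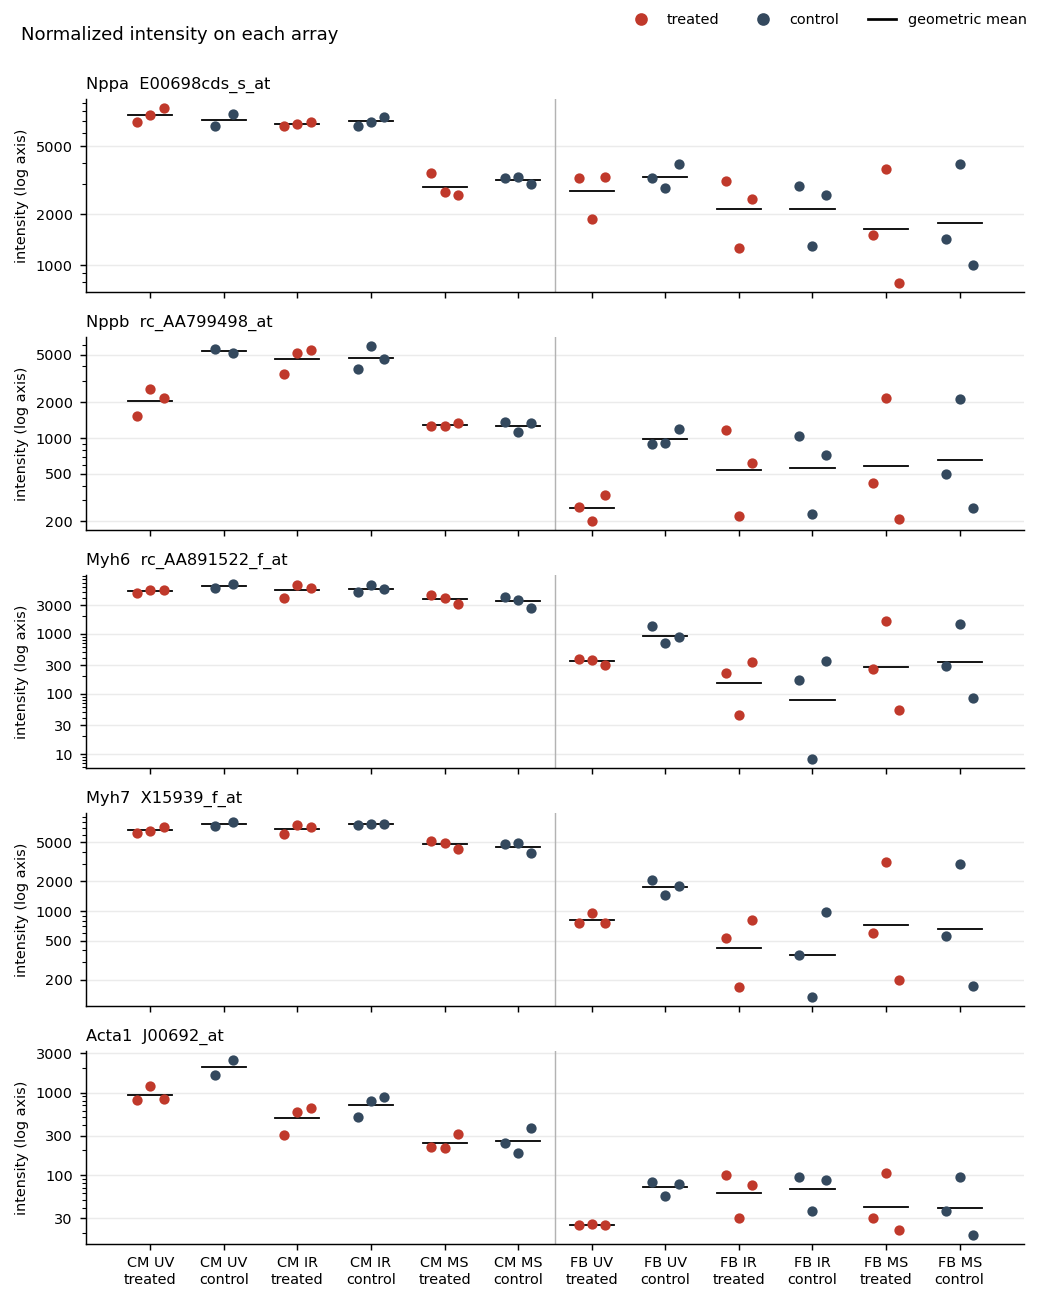
Normalized intensity on each array (vertical log axis) of the brightest probe-set of Nppa, Nppb, Myh6, Myh7 and Acta1, by population, stressor and treatment, with the geometric mean of each group as a line. Nppb and Acta1 of UV-treated cells lie below their controls in both populations, and the fibroblast arrays of the IR and MS experiments spread widely within a group.

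Nppa and Nppb thus had unlike changes within the same UV experiments. The change of Nppb minus the change of Nppa was below 0 in 5 of 5 pairs, between -1.95 and -0.99 on the log2 scale. The same difference was below 0 in 5 of 5 pairs for Acta1 (-1.75 to -0.51), Myh7 (-1.45 to -0.02) and Myh6 (-1.81 to -0.29). An exact two-sided sign-flip permutation test over the pairs gave p = 0.0625 for each of the 4, which is the smallest that 5 pairs allow. These 4 differences were set up after the values had been seen. Over the 35 arrays Nppa and Nppb correlated at r of 0.86 to 0.89, over arrays that hold both populations and share experiments.

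**Figure D3:**
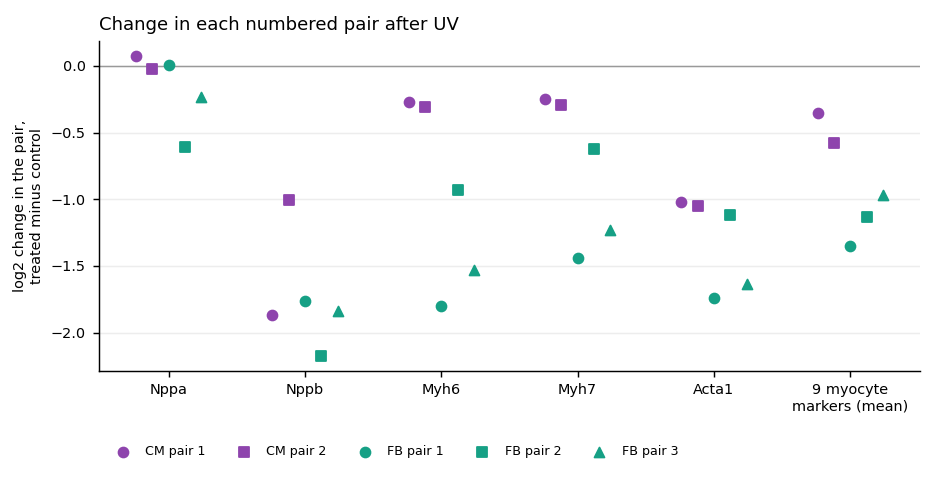
Log2 change after UV in each numbered pair (vertical axis), for the brightest probe-set of each gene and for the mean of 9 myocyte markers. Nppa lies nearest to 0, Nppb between -2.17 and -1.01, and Acta1 between -1.74 and -1.02.

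Myh6 was lower after UV in cultures of fibroblasts with all 3 of its probe-sets. Probe-set rc_AA891522_f_at read 381.2, 363.6 and 305.6 in UV-treated fibroblasts, against 1331, 692.2 and 883.8 in controls. Treated and control arrays did not overlap for any of the 3. The changes were -1.42 (SE 0.346, adjusted p = 0.00924), -1.03 (SE 0.266, adjusted p = 0.0132) for rc_AI104924_f_at and -1.62 (SE 0.388, adjusted p = 0.0086) for rc_AI103920_f_at. Leaving out replicate 1 ended all 3 calls (adjusted p = 0.11 to 0.215), leaving out replicate 2 or 3 ended 2 of them each, and the highest adjusted p over the alternatives was 0.518.

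In UV-treated CM-enriched fractions Myh6 read 4756, 5437 and 5390 with rc_AA891522_f_at, against 5731 and 6716 in controls. That probe-set did not overlap but its change of -0.29 (-1.21 to 0.63, adjusted p = 0.795) was within the error. The dimmest, rc_AI103920_f_at, read 945.1, 631.7 and 546.0 in treated CM, against 1317 and 2203 in controls. Its change of -1.14 (SE 0.475, adjusted p = 0.132) differed between the pairs, at -0.48 and -1.80. Leaving out replicate 3 of all groups kept the change at -1.14, with SE 0.263 and an adjusted p of 0.0352. Since CM array 3 does not enter the change, that smaller SE came from the other groups. Without the block the adjusted p was 0.413. rc_AI104924_f_at overlapped and changed by -0.44 (-1.15 to 0.27, adjusted p = 0.448).

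The Myh6 probe-sets differed among themselves after IR. In irradiated CM rc_AI103920_f_at read 862.3, 1086 and 160.4, against 1053, 1102 and 947.9 in controls, a change of -0.96 (SE 0.388, adjusted p = 0.383). Treated array 3 was low on this probe-set and on rc_AI104924_f_at (927.4, against 2315 in its control), while on rc_AA891522_f_at it read 5691, against 5626. That array was scanned apart from the other 5 and shares an array lot with treated array 1. With the scan as a further block only pairs 1 and 2 set the change of rc_AI103920_f_at (-0.155). With the lot only pair 2 sets it (-0.022), so neither fit separates scan or lot from irradiation. In irradiated fibroblasts the 3 probe-sets changed by 0.42 to 0.90 (adjusted p = 0.641 to 0.85). The largest of these rests on the second experiment, where rc_AA891522_f_at read 44.14 in irradiated cells, against 8.318 in controls, while the controls of the other 2 experiments read 173.3 and 356.7. Without that experiment the change was 0.15, the lowest of the alternatives. After MS the Myh6 changes ran between -0.25 and 0.26 with adjusted p of 1.

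Myh7 was lower after UV in cultures of fibroblasts, by 2.14-fold with X15939_f_at and 2.89-fold with X15939_i_at. X15939_f_at read 761.9, 949.5 and 759.2 in UV-treated fibroblasts, against 2068, 1463 and 1782 in controls. X15939_i_at read 252.2, 284.3 and 245.1, against 975.2, 615.2 and 704.0. Neither overlapped, with changes of -1.10 (SE 0.151, adjusted p = 0.000169) and -1.53 (SE 0.179, adjusted p = 4.5e-05). Both calls were kept without any 1 replicate (adjusted p up to 0.0218) and ended without the block (adjusted p = 0.491 and 0.322, the highest of the alternatives).

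In CM-enriched fractions Myh7 was not called after UV. X15939_f_at read 6216, 6562 and 7111 after UV, against 7364 and 8026 in controls, and X15939_i_at read 4673, 3532 and 3282, against 4135 and 5070. The first did not overlap and the second did, with changes of -0.27 (-0.67 to 0.14, adjusted p = 0.403) and -0.17 (-0.65 to 0.30, adjusted p = 0.735). After IR X15939_f_at was lower on every treated CM array, with 6138, 7472 and 7111, against 7551, 7762 and 7762 in controls. That made it the only member without overlap there, where 8.46% of all probe-sets had none, and the change of -0.16 (-0.49 to 0.17, adjusted p = 0.816) did not pass. In irradiated fibroblasts it read 536.5, 167.5 and 801.6, against 357.9, 133.9 and 979.2 in controls, a change of 0.21 (-0.12 to 0.53).

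After MS only Myh7 X15939_i_at was without overlap among the 11 probe-sets in CM. In stretched CM X15939_i_at read 2173, 2104 and 1839, against 1826, 1763 and 1598 in controls, higher in 3 of 3 pairs. The change was 0.24 (SE 0.179, -0.15 to 0.63, adjusted p = 1), and 7.01% of all probe-sets had no overlap in that comparison. X15939_f_at read 5140, 4951 and 4257 in stretched CM, against 4779, 4931 and 3938 in controls, with overlap and a change of 0.07. In stretched fibroblasts it read 595.4, 3118 and 199.0, against 552.2, 3011 and 173.3 in controls, a change of 0.12 (-0.21 to 0.45). No member was without overlap in fibroblasts after IR or MS, where 4.59% and 5.15% of all probe-sets were.

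The Myh7 to Myh6 balance was taken as the change of log2 Myh7 minus log2 Myh6 on the same array, since levels of different probe-sets cannot be set against each other. With the brightest probe-set of each gene it changed in UV-treated fibroblasts by 0.36, 0.30 and 0.30 in the 3 pairs (mean 0.32, SD 0.04), toward Myh7. The exact sign-flip permutation test gave p = 0.25, the smallest that 3 pairs allow. The other 5 pairs of probe-sets gave means of -0.50 to 0.52, so that the direction depends on the probe-sets. In UV-treated CM the change was 0.02 and 0.01 in the 2 pairs, and 0.11 to 0.97 with the other probe-sets.

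After IR the balance in CM changed by -0.07 (SD 0.10), and by 0.02 to 0.88 with the other 5 pairs of probe-sets, which turn its direction. In FB it changed by 0.23, -2.09 and -0.24, the second of which holds the dim Myh6 control array, and the means of the other pairs were -0.88 to -0.22. After MS it changed by -0.06 (SD 0.08) in CM and by 0.36 (SD 0.48) in FB, and by -0.19 to 0.19 and -0.10 to 0.53 with the other pairs. None of the exact tests could pass with 2 or 3 pairs. Myh6 and Myh7 are close paralogs, and 4 of their 5 probe-sets carry the suffix for a family of sequences, so signal from each gene on the other's probe-sets cannot be told apart here. X15939_f_at and rc_AA891522_f_at correlated at r = 0.99 over the 35 arrays, while the Myh6 probe-sets correlated with each other at 0.92 to 0.97.

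**Figure D4:**
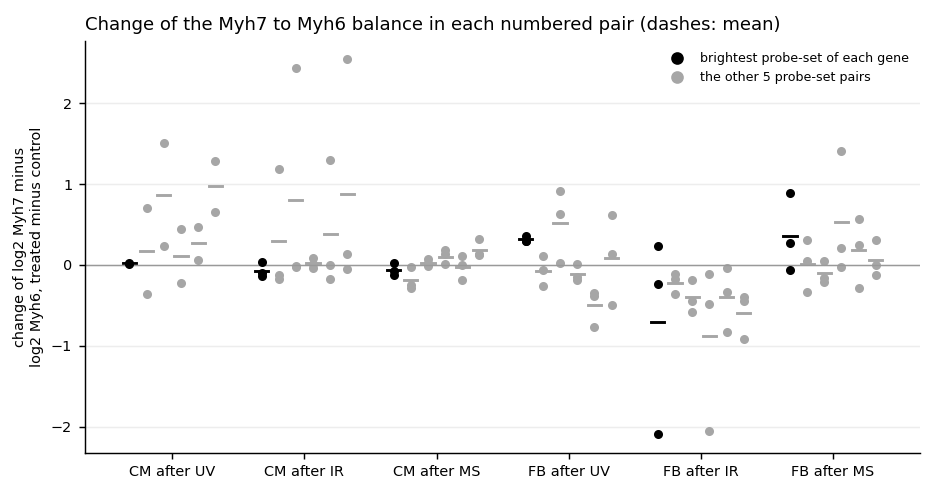
Change of the Myh7 to Myh6 balance (log2 Myh7 minus log2 Myh6, treated minus control, vertical axis) in each numbered pair for the 6 comparisons, with dashes at the means. The brightest probe-sets are in black and the other 5 combinations in grey, which lie on both sides of 0 in UV-treated fibroblasts.

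Acta1, the skeletal alpha-actin, was lower after UV by 2.05-fold in CM-enriched fractions and 2.83-fold in cultures of fibroblasts. J00692_at read 813.9, 1197 and 847.2 on UV-treated CM arrays, against 1649 and 2472 on controls. In fibroblasts it read 24.72, 25.43 and 25.1 after UV, against 82.62, 55.15 and 78.14 in controls. Counted from the brightest probe-set, these fibroblast readings ranked 5173 to 5216 after UV and 3287 to 3934 in controls. On the CM arrays J00692_at ranked 512 to 717 after UV and 254 to 376 in controls. The Acta1 change in fibroblasts thus rests on far dimmer signal than that in CM. No array overlapped in either population. The changes were -1.03 (SE 0.162, adjusted p = 0.000966) in CM and -1.50 (SE 0.132, adjusted p = 4.62e-06) in FB, and their difference was 0.47 (0.01 to 0.92, adjusted p = 0.238). Without the block the adjusted p was 0.318 in CM and 0.0739 in FB, the highest of the alternatives in both. In FB the calls of Nppb and Acta1 were kept without any 1 replicate, with adjusted p up to 0.00123 and 0.00349. In CM leaving out replicate 1 or 2 leaves 1 pair, and array 3 does not enter the change. The changes then ran from -1.86 to -1.01 for Nppb and from -1.05 to -1.02 for Acta1. With only the arrays of the comparison their adjusted p in CM were 0.344 and 0.308.

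After IR Acta1 in CM read 306.8, 589.4 and 654.2, against 501.6, 798.8 and 887.3 in controls. It was lower in 3 of 3 pairs although the groups overlapped. The change of -0.53 (SE 0.132, adjusted p = 0.118) had the lowest adjusted p of the 11 probe-sets after IR, and over the alternatives that p lay between 0.0958 and 1. In irradiated fibroblasts it read 101.4, 30.25 and 75.95, against 93.75, 37.23 and 87.5 in controls (-0.13, -0.42 to 0.16). After MS it read 220.7, 214.1 and 316.2 in CM, against 244.9, 187.4 and 369.2 in controls (-0.06, -0.35 to 0.23). Stretched fibroblasts read 30.31, 107.3 and 21.39, against 36.51, 93.67 and 18.87 in controls (0.04, -0.25 to 0.32). Stretched and unstretched cells overlapped in both populations.

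The difference of the UV change between the populations was tested for all 11 probe-sets. Only Myh7 X15939_i_at passed, with a change that was 1.36 higher in CM than in FB on the log2 scale (SE 0.283, 0.74 to 1.97, adjusted p = 0.0145), where 3.63% of all probe-sets were called higher and 6.35% in either direction. X15939_f_at had a difference of 0.83 (adjusted p = 0.063). The other 9 differences ran between -0.08 and 1.13. Without replicate 1 the X15939_i_at difference was 0.79 (adjusted p = 0.345) and without replicate 3 it was 1.36 (adjusted p = 0.0978), so both end the call, and over the alternatives the adjusted p ran between 0.00428 and 0.842. For IR limma called 0 of the 11 differences (2 at an unadjusted p below 0.05) and for MS 0 (0 at that level), where 0.0686% and 0% of all probe-sets were called.

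In the unstressed controls all 11 probe-sets averaged higher in CM than in FB. They passed for 7 of 11 in the UV controls (11.7% of all probe-sets called higher), 11 of 11 in the IR controls (12.7%) and 7 of 11 in the MS controls (10.7%). Acta1 was higher in CM controls by 4.81, 3.39 and 2.68 on the log2 scale in the UV, IR and MS experiments, and Nppb by 2.45, 3.07 and 0.96, the last with an adjusted p of 0.286. The ranges over probe-sets were 1.14 to 1.52, 1.71 to 2.23 and 0.67 to 1.25 for Nppa, 1.98 to 2.74, 4.43 to 6.13 and 3.04 to 3.37 for Myh6, and 2.15 to 2.58, 4.41 to 4.61 and 2.78 to 2.79 for Myh7. The 6.13 of Myh6 rc_AA891522_f_at in the IR controls rests in part on the dim fibroblast control array of the second experiment, and without replicate 2 it was 4.41 (adjusted p = 0.000379). Without replicate 1 the counts were 1 in the UV and 1 in the MS controls, and without replicate 2 or 3 they were 11 and 2 in the MS controls. In the MS controls replicate 2 of the fibroblasts is the culture with the highest levels of Nppa, Nppb, Myh6, Myh7 and Acta1.

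Most myocyte markers also fell in UV-treated fibroblasts, where 7 of the 11 member probe-sets were lower. Of all probe-sets 11.2% were called lower in UV-treated FB and 8.16% in UV-treated CM. Of 9 measured markers, 7 were lower and 0 higher in FB: Tnnt2 (-0.78), Tnni3 (-1.41), Myl2 (-0.96), Myl3 (-0.80), Actc1 (-2.57), Pln (-1.93) and Casq2 (-0.73), while Ryr2 (-1.04, adjusted p = 0.114) and Ckmt2 (-0.15) did not pass. Without the block 2 of the 9 were lower, and with a random block 3. Their summed level was 5220 to 7380 on UV-treated fibroblast arrays, against 14400 to 16400 on controls. In CM-enriched fractions 2 of 9 were lower, Tnni3 (-0.49) and Pln (-1.61), against 0 without the block, and the summed level was 30400 to 31500 after UV, against 37000 to 37700 in controls. The median over the 9 markers was -0.96 in FB and -0.24 in CM. Their part in the lower levels of Nppb, Myh6, Myh7 and Acta1 was not tested.

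The mean log2 level of the 9 markers was 7.77, 7.81 and 8.07 on UV-treated fibroblast arrays, against 9.12, 8.94 and 9.04 on controls, and 10.45, 10.35 and 10.23 on UV-treated CM arrays, against 10.8 and 10.93 on controls. In both populations the treated arrays were lower than all of their controls. The fibroblast arrays of the other stressors ran from 6.38 to 9.37. The CM arrays of the MS experiments had marker levels of 10.06 to 10.5 and Nppb of 1115 to 1357, below the Nppb of each UV-treated CM array. Those MS arrays hold cultures on plates coated with collagen I, taken without elutriation, whereas the UV arrays hold elutriated fractions. The preparations are thus unlike, and what sets their Nppb levels was not tested.

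**Figure D5:**
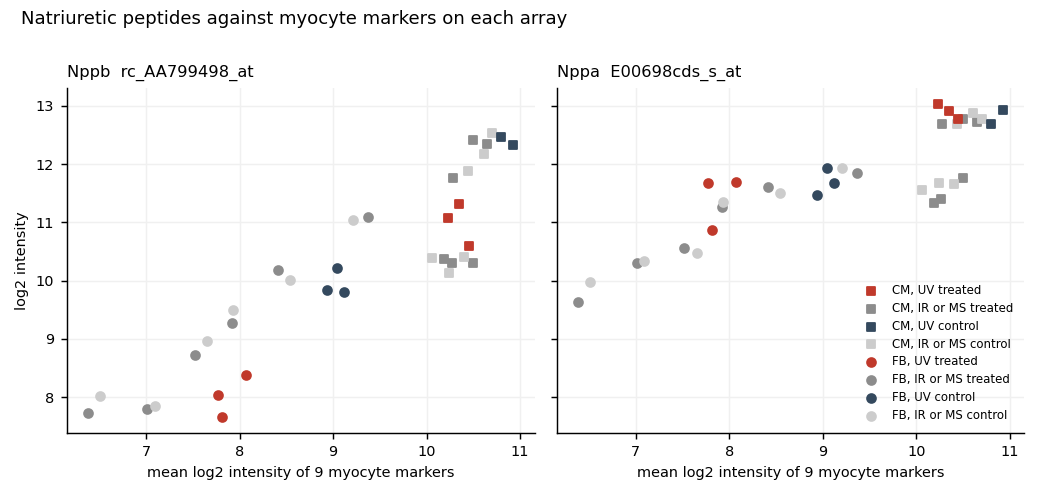
Log2 intensity of Nppb (left) and Nppa (right) against the mean log2 intensity of 9 myocyte markers on each of the 35 arrays (squares for CM, circles for FB, with the UV experiments in colour). UV-treated fibroblasts have marker levels of 7.77 to 8.07, against 8.94 to 9.12 in their controls.

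Markers of other cell types moved as well, where 8.16% of all probe-sets were called lower in CM after UV and 11.2% in FB. After UV, 4 of 10 fibroblast markers were lower in CM and 3 in FB, with summed levels of 14000 to 18700 in treated CM, against 17700 to 23200 in controls, and of 33400 to 38200 in treated FB, against 41300 to 45000 in controls. Of 4 smooth muscle markers 2 were lower in CM and 3 in FB. Of 4 endothelial markers 0 passed in either population, and of 4 leukocyte markers 1 was higher in FB, Cd14 (0.95). Of 5 skeletal muscle genes only Acta1 itself passed. Without the block the counts were 2 (CM) and 1 (FB) for fibroblast markers, 1 and 1 for smooth muscle and 0 and 0 for skeletal muscle genes. After IR and MS 0 markers of any of these lists passed in either population.

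The other genes of the pathway were read from lists. After UV, 8.16% of all probe-sets were called lower and 8.62% higher in CM, and 11.2% and 11.7% in FB. The list for the natriuretic peptide system had 11 measured genes. It also takes in the soluble guanylate cyclase, which answers nitric oxide, so its counts are not of the peptides' own pathway alone. In CM 3 were lower after UV. Gucy1a1 (-0.80, adjusted p = 0.00147) and Gucy1b1 (-1.04, adjusted p = 0.0128) are the subunits of that soluble cyclase. Furin (-0.54, adjusted p = 0.00163) is a protease that cleaves precursor proteins, the B-type peptide's among them. In FB 1 was lower, Gucy1a1 (-1.99, adjusted p = 1.07e-07), and 1 higher, Npr1 (0.73, adjusted p = 0.00687), the guanylate cyclase receptor of both peptides. The list's median was -0.54 in CM and -0.28 in FB. Of 9 cardiac transcription factors, Nkx2-5 (-0.71, adjusted p = 0.0227) was lower in CM, and Thra (-1.44, adjusted p = 1.25e-05), a thyroid hormone receptor, and Gata6 (-0.43, adjusted p = 0.0196) were lower in FB.

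Hypertrophic ligands, receptors and signal proteins gave 6 lower and 2 higher of 26 in CM, and 11 lower and 1 higher in FB, after UV (medians -0.16 and -0.31). Over all probe-sets 8.16% were called lower and 8.62% higher in CM, and 11.2% and 11.7% in FB. The lowest p in CM were those of Agtr1a (-2.23, adjusted p = 5.12e-05), an angiotensin II receptor, Igf1 (-1.43, adjusted p = 8.46e-05), a growth factor, and Camk2d (-0.58, adjusted p = 0.000257), a calcium-dependent kinase. In FB they were those of Camk2d (-2.51, adjusted p = 2.5e-10), Agtr1a (-3.15, adjusted p = 2.46e-07) and Ppp3ca (-1.80, adjusted p = 1.09e-06), a calcineurin subunit. The higher ones, named after their values were seen, were Lif (2.22) and Ppp3cb (0.99) in CM and Erbb2 (1.02) in FB.

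Other genes of the fetal and hypertrophic programme gave 8 lower and 1 higher of 27 in CM after UV, and 19 lower and 1 higher in FB (medians -0.39 and -0.80). Over all probe-sets 8.16% were called lower and 8.62% higher in CM, and 11.2% and 11.7% in FB. The list shares Tnnt2, Tnni3, Myl2, Myl3, Actc1, Ryr2, Pln and Casq2 with the myocyte markers above, so the counts of both lists overlap. Ankrd1, a stress-induced cardiac ankyrin repeat protein, fell by 1.88 on the log2 scale in CM (adjusted p = 4.54e-06) and by 2.45 in FB (adjusted p = 2.54e-08). Pln, phospholamban, the brake on the calcium pump of the sarcoplasmic reticulum, fell by 1.61 in CM (adjusted p = 7.01e-06) and by 1.93 in FB (adjusted p = 8.55e-08). Csrp3, the muscle LIM protein, fell by 1.41 in CM (adjusted p = 8.47e-06), and Actc1, the cardiac alpha-actin, by 2.57 in FB (adjusted p = 1.58e-08). The higher ones, named after their values were seen, were Pgam2 (1.40) in CM and Ckb (0.57) in FB. After IR and MS limma called 0 genes of these 4 lists in either population.

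The patterns over the 35 arrays most like that of each member's brightest probe-set, by Pearson's r and among other single-symbol genes, were as follows. For Nppa they were Myl3 (0.926), Trim54 (0.919) and Spink8 (0.912), and for Nppb Csrp3 (0.958), Ankrd1 (0.935) and Smpx (0.927). For Myh6 they were Pygm (0.961), Tpm1 (0.955) and Casq2 (0.955), for Myh7 Casq2 (0.971), Actn2 (0.97) and Tpm1 (0.966), and for Acta1 Tmod1 (0.958) and 2 probe-sets of Myl4 (0.957 and 0.952). Arrays share populations and experiments, so these values carry the difference between CM and FB.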

How the data were processed

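Expression was measured on 35 Affymetrix rat arrays. The authors deposited 1 linear intensity per probe-set and array, not values of the linear model they describe, and the software that made these intensities is not given in the sources used here. The trimmed mean of the deposited values was 200.3 to 200.4 on 26 arrays and 1001.5 to 1001.7 on 9. Those 9 were the CM arrays of the IR experiments and the CM arrays numbered 2 and 3 of the UV experiments. Both arrays of a numbered pair had the same scale, while in the IR controls the scale went with the population. Each array was scaled to a 75th percentile of 175, values below the 20th percentile of all (6.9) were raised to it, and the log2 values were quantile normalized, which left 14.5% to 24.7% of an array at the floor. Of 8799 probe-sets 59 controls were left out. Symbols came from the array annotation (7006 probe-sets with 1 symbol, 308 with several, 1426 with none).

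One limma 3.58.1 fit (R 4.3.3, lmFit and eBayes, trend on intensity) held all 35 arrays. The numbered experiment was a block in it, which left 11 residual degrees of freedom, and tests were two-sided. The study's model also held an effect of experiment, but it described single probes and added an interaction of treatment and experiment. Levels of CM over FB controls used the experiment as a random block (statmod 1.5.0, correlation 0.325). Experiment numbers are those in the sample titles (1 where a title has none). Deviations from the group means correlated at 0.06 to 0.80 in 17 numbered pairs, over 0.1 in 14, and were highest with the own number in 16. Such deviations sum to 0 within a group, so the last count is partly set by construction and is a weak check of the pairing. In CM after UV, for example, treated array 1 gave 0.24 with its own control and -0.24 with the other. Arrays of a group correlated at Spearman's rho of 0.925 to 0.98 and 0 pairs held identical values. The replicates are numbered experiments, which the study calls independent, but the sources used here do not say whether each came from a separate isolation. The spread of a probe-set was estimated over all 35 arrays. The SE and p-value of a comparison therefore rest on that shared spread, not only on its own arrays. For CM after UV most of it comes from other groups. The number of arrays limits the precision.

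The members and lists were chosen with earlier results of these data known. The genes named were all member probe-sets, the called genes of each list and comparison, at most 3, in order of adjusted p (brightest probe-set by mean), and the 3 probe-sets most correlated with each member's brightest one. The fit was tested on simulated data. Scan records of 16 arrays were read only for scan and lot.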

Additional observations from a re-analysis of the deposited data

Results flagged for a closer look

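The change of Myh7 probe-set X15939_i_at after UV differed between the populations by a test of the difference itself: the change in CM minus the change in FB was 1.36 on the log2 scale (SE 0.283, adjusted p = 0.0145), with -0.17 in CM and -1.53 in FB. The second Myh7 probe-set, X15939_f_at, gave 0.83 (adjusted p = 0.063).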

How the results depend on the processing

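The fits without the replicate block called 0 (CM after UV), 0 (FB after UV) and 0 (difference after UV) members, against 2, 7 and 1 with it, and 3 in the UV controls of CM over FB, against 7. The Myh7 to Myh6 balance in CM after UV was 0.04 without the block. With a random block the 3 counts were 0, 3 and 0, and with only the arrays of a comparison 0 and 1. A higher floor, a pseudocount in place of the floor and a filter on dim probe-sets each gave 2 for the difference, and the last 2 of these gave 11 for the UV controls. Leaving out each replicate gave 5 (FB after UV, each time) and 1 to 11 (MS controls). In CM of the UV experiments leaving out replicate 1 or 2 leaves 1 pair and 1 control array. Counts that draw on it then rest on the spread of other groups and are left out here. Without the block the pathway list counts of calls in CM after UV were 1, 0, 4 and 3, against 3, 1, 8 and 9. In FB they were 1, 1, 9 and 6, against 2, 2, 12 and 20. The member counts after IR and MS (0) and in the IR controls (11) were the same under every alternative run. Over all probe-sets, 813 (CM) and 1200 (FB) were called after UV without the block and 0 and 429 with only the arrays of the comparison, against 1466 and 2002.

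The balance in CM after UV was 0.05 with scaling alone and, with the other probe-sets, 0.17, 0.87, 0.11, 0.27 and 0.97, and ran from 0.01 to 0.02 when each replicate was left out. In FB after UV the other probe-sets gave -0.07, 0.52, -0.11, -0.50 and 0.09. In CM after IR they gave 0.30, 0.80, 0.02, 0.38 and 0.88, and in CM after MS -0.19, 0.03, 0.10, -0.03 and 0.19. Single changes that turned sign were not called: in CM after UV, Nppa E00698cds_s_at (-0.029 with scaling alone, -0.022 to 0.075 with each replicate left out), Nppa E00775cds_s_at (-0.129 with scaling alone), Myh6 rc_AI104924_f_at (-0.997 to 0.117) and Myh7 X15939_i_at (-0.52 to 0.176), both with each replicate left out. The others were Nppa X01118_at in FB after UV (-0.059 to 0.002 with each replicate left out) and, in CM after IR, Myh6 rc_AA891522_f_at (-0.162 to 0.028 with each replicate left out, 0.042 with the array lot as a block) and rc_AI104924_f_at (0.117 with the lot). With the lot as a block the changes in CM after IR rest on pair 2 alone. Of 67 further uncalled changes 26 turned sign in an alternative, the largest of them at 0.59. The causes were not tested.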
